A study of Mus musculus with 2 samples.

Results

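The cells described here are those of the septal explants in which the Dbx1 lineage reporter was read. They were 298 of the 5827 cell barcodes of the library, chosen by 2 measured values, no eYFP transcript and at least 1 transcript of the red reporter, which the gene list spells dtTomato. Of the 5827 barcodes, 5649 had under 4% mitochondrial transcripts and were kept, and 1673 of these had 0 eYFP unique molecular identifiers (UMIs, the tags that count single transcripts). The other 1375 cells without eYFP had 0 dtTomato UMIs and are called untraced. Both groups were split by the summed UMIs of 7 progenitor genes (A: Sox2, Hes1, Hes5, Vim, Nes, Fabp7 and Slc1a3) and of 6 neuronal genes (N: Tubb3, Stmn2, Dcx, Elavl3, Gap43 and Mapt). Of the tdTomato+ cells, 167 were progenitors (A above N) and 128 were neurons (N above A), against 960 and 409 of the untraced cells, and 3 and 6 cells with equal sums were left out of both classes.

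The library pooled the septal explants of 8 E11.5 PGKCre;Rosa26YFP embryos and 4 E12.5 Dbx1Cre;Rosa26tdTomato embryos, each genotype from 2 litters, with about 10000 cells loaded. The labels give the strain as C57BL/6J and the genotype as wild-type, with no separate entry for the reporter alleles. PGKCre acts in all cells, so that YFP marks the embryos of the younger stage, whereas Dbx1Cre turns on tdTomato only in cells that express Dbx1 or descend from such cells. Reporter and age therefore cannot be told apart between eYFP and tdTomato cells, the embryos behind 1 cell are not known, and the untraced cells may come from either genotype. The untraced cells may also include cells of the Dbx1 lineage whose reporter transcripts were not caught. Of the 298 tdTomato+ cells, 187 held only 1 dtTomato UMI. How many untraced cells belong to the lineage was not tested, so the ratios below do not set lineage cells against cells outside the lineage. As there was 1 library, cells are not replicates, no significance test was made, and every interval is an exact 95% interval of counting error only.

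Dbx1 is a homeodomain transcription factor that is switched on in progenitors at the borders of the pallium, among them the septum and the ventral pallium. The authors also report its transcript in postmitotic neurons of the septum. The septal and ventral pallial Dbx1 domains are known sources of early-born neurons, including subtypes of Cajal-Retzius cells, which secrete Reelin from the cortical surface. Because Cre recombination is permanent, tdTomato remains also in neurons in which Dbx1 itself has been switched off. The septum lies next to the rostral patterning centre that secretes FGF8 and FGF17 and borders the subpallium, where Nkx2-1, Gsx2 and the Dlx genes are used and GABAergic neurons are born.

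The tdTomato+ cells were read somewhat deeper than the untraced ones, with a median of 13260 against 12919 UMIs in progenitors and 11041.5 against 10293 in neurons. The median number of genes was 3674 against 3644 and 3508.5 against 3284. Shares of cells with a UMI of a gene, given below for the 2 groups, are not adjusted for depth. The 3226 cells with at least 3 eYFP UMIs, which come from embryos that lack the tdTomato allele, had a median of 13705 UMIs and served as the background of free RNA and doublets. Scrublet, a doublet caller, marked 5 of the 5649 cells (0.0885%), which is too few for it to have worked, and doublets were otherwise not removed. Of the barcodes, 1 was shared with the other library of the series, which was not analysed here. Cells with Xist but no Y-linked UMIs made up 59.1% of tdTomato+, 53.3% of untraced and 65.6% of eYFP cells, and cells with only Y-linked UMIs 23.5%, 26.8% and 16.3%. The part of these differences between pools of embryos in the results was not tested.

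Reference sequence around the start of 4 genes is shown because Dbx1 is the gene whose regulation drives the tracing allele, and because Nkx2-1 in progenitors and Crabp1 and Lhx1 in neurons were among the leading genes of tdTomato+ cells. Each run holds 250 bases before to 50 bases after the annotated start, read 5′ to 3′ on the strand of the gene from RefSeq on GRCm38.p6, at chr7:49636786-49637085 (minus strand) for Dbx1, chr12:56536859-56537158 (minus) for Nkx2-1, chr9:54764498-54764797 (plus) for Crabp1 and chr11:84525485-84525784 (minus) for Lhx1. Capitals mark the core of homeodomain binding sites, TAAT or its reverse complement ATTA.
Dbx1: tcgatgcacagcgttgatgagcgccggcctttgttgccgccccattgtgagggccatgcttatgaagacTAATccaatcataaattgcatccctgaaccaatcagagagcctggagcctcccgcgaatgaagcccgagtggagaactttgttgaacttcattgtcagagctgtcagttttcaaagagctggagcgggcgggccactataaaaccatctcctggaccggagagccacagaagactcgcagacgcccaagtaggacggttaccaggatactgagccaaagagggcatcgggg
Nkx2-1: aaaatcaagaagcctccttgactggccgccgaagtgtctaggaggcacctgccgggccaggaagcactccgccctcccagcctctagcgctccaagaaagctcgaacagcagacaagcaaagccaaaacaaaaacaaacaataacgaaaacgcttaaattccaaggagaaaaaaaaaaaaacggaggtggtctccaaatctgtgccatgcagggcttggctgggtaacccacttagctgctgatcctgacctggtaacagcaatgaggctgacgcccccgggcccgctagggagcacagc
Crabp1: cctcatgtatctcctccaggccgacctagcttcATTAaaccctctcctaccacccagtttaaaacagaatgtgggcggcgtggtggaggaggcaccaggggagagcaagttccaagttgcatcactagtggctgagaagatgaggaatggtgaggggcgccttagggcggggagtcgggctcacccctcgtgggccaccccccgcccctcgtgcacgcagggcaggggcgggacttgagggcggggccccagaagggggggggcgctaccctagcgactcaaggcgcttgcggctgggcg
Lhx1: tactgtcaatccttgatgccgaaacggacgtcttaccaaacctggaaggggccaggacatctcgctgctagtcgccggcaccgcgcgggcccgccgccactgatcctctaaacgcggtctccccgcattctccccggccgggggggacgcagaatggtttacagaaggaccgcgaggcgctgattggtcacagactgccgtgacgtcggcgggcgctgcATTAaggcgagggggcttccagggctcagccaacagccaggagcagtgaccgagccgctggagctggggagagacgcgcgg
The core was found 1, 0, 1 and 1 times in these windows, and in 58.0% of 32851 windows of the same length. An E-box, the CANNTG motif of basic helix-loop-helix factors, was found in the window of Nkx2-1 only, and in 72.3% of all windows. These are matches of letters, and no binding was measured.

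The reporter was read in a larger share of neurons than of progenitors, and in both above its background. At least 1 dtTomato UMI was present in 14.8% of the progenitors without eYFP (12.8 to 17) and in 23.8% of the neurons (20.3 to 27.7). In the cells with at least 3 eYFP UMIs the share was 1.43% of 2233 progenitors and 0.924% of 974 neurons. At that background, 16.2 of the 167 tdTomato+ progenitors and 4.96 of the 128 tdTomato+ neurons would carry a UMI by free RNA or as doublets. Cells with exactly 1 eYFP UMI had a tdTomato share of 13.5% (66 of 490 cells), much nearer to that of cells without eYFP, and those with 2 had 3.85% (10 of 260).

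These values chose the groups and are given as a description. Most tdTomato+ cells sat at the threshold, with 187 of the 298 (62.8%) holding 1 UMI, 38 holding 2, 23 holding 3 and 50 holding 4 or more. The highest count was 6 in progenitors and 12 in neurons. Progenitors held fewer, as 30.5% of the tdTomato+ progenitors and 45.3% of the tdTomato+ neurons had at least 2. At this threshold the share was 4.53% of progenitors (3.39 to 5.91) and 10.8% of neurons (8.30 to 13.7), against 0.186% of the eYFP cells. A Cre sequence, listed as IRESCRE, was rarely caught, in 9 tdTomato+ cells (3.02%, 1.39 to 5.66), 9 untraced cells (0.655%, 0.300 to 1.24) and 4 of the 3226 eYFP cells (0.124%).

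The reporter was also read in cells gated on marker genes, and the gates were chosen after values were seen. Nkx2-1, Fgf8, Crabp1, Onecut2 and Lhx1 were themselves among the leading higher genes of tdTomato+ progenitors or neurons. Dlx2, Dlx5, Sp9 and Gad2 were among the leading lower genes of tdTomato+ neurons. A high or a low share in gates on these genes therefore restates that and is not a separate result. The position of a cell in the septum was not measured. Cells with exactly 1 dtTomato UMI differed less between the gated populations than cells with more. They made up 14.7% of the 95 progenitors with at least 2 UMIs of Nkx2-1, a ventral telencephalic selector gene, 11.6% of the 294 progenitors with at least 5 UMIs of Fgf8 and Fgf17 together, 12.7% of the 110 with at least 2 of the subpallial factor Gsx2 and 12.6% of the 404 with at least 2 of the pallial factor Emx1. All 4 intervals overlapped that of all progenitors (10.3%, 8.58 to 12.2).

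Cells with at least 2 dtTomato UMIs differed more between the gates. Their share was 20% (12.49 to 29.5) of the Nkx2-1 progenitors and 8.503% (5.58 to 12.3) of the Fgf8 and Fgf17 progenitors, but 2.73% (0.566 to 7.76) of the Gsx2 and 2.48% (1.19 to 4.50) of the Emx1 progenitors. Among neurons it was 38.0% (24.7 to 52.8) of the 50 cells with at least 5 UMIs of Crabp1, a retinoic acid binding protein, and the homeodomain factor Onecut2, and 25.4% (15.3 to 37.9) of the 63 cells with at least 5 UMIs of Trp73, Reln and Lhx1, genes of Cajal-Retzius cells. It was 9.95% (6.34 to 14.7) of the 221 neurons with at least 5 UMIs of Tbr1, a factor of pallial glutamatergic neurons, and 3.53% (0.734 to 9.97) of the 85 neurons with at least 5 UMIs of Dlx2, Dlx5 and Sp9. Of these populations, the Emx1 progenitors, with the lowest share, were the deepest (median 14802 UMIs), and the Crabp1 and Onecut2 neurons, with the highest share, the shallowest (median 9813.5 UMIs). Of the cells with at least 3 eYFP UMIs, 1.08% (35 of 3226, 0.757 to 1.51) held exactly 1 dtTomato UMI. Whether single dtTomato UMIs in cells without eYFP came from weak reporter transcripts or from free RNA was not tested.

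**Figure D1:**
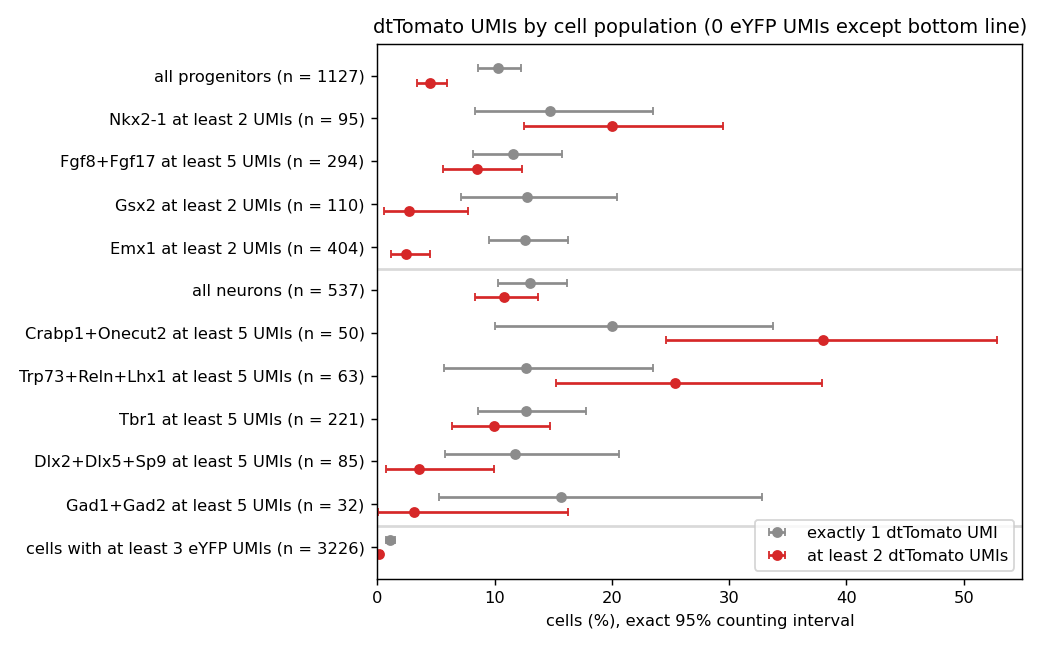
Share of cells (percent, x axis) with exactly 1 (grey) and with at least 2 dtTomato UMIs (red) in marker-gated populations without eYFP and, at the bottom, in cells with at least 3 eYFP UMIs; bars are exact 95% counting intervals. The grey points lie between 10.3% and 20% in all populations without eYFP, whereas the red points run from 2.48% in Emx1 progenitors to 38.0% in Crabp1 and Onecut2 neurons.

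Of the 32 neurons with at least 5 UMIs of Gad1 and Gad2, the enzymes that make GABA, 6 had a dtTomato UMI (18.8%, 7.21 to 36.4), 5 with 1 UMI and 1 with at least 4. The share with exactly 1 UMI, 15.6% (5.28 to 32.8), overlapped that of all neurons (13.04%, 10.3 to 16.2).

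Clustering the kept cells without the reporters, the A and N genes and the listed genes gave 28 clusters, 22 of them with at least 40 cells free of eYFP. The share with exactly 1 dtTomato UMI ranged from 0 to 19.2% over these 22, with a median of 11%. The share with at least 2 ranged from 0 to 30.6%, with a median of 4.46%, and 4 clusters stood at 20% or above. The cluster led by D930028M14Rik, Crabp1 and Onecut2 had 30.6% (19.6 to 43.7, 62 cells), that led by Cdkn1a, Lhx1os and Lhx1 27.9% (15.3 to 43.7, 43 cells), that led by Fgf17, Fgf8 and Nkx2-1 24.5% (13.8 to 38.3, 53 cells) and that led by Neurog1, with Onecut2 among its leading genes, 20% (10.03 to 33.7, 50 cells). A neuronal cluster led by Tbr1 had 1.72% (0.0436 to 9.24) and one led by Dlx5 and Sp9 3.03% (0.369 to 10.5). The shallowest cluster, with a median of 4904.5 UMIs, had no dtTomato UMI in 58 cells, with an exact interval up to 6.16%. In 3 clusters that held 304 cells without eYFP but only 7 with at least 3 eYFP UMIs, 17.8% of cells had a dtTomato UMI (13.6 to 22.5) and 3.62% had at least 2 (1.82 to 6.38).

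Along a differentiation scale made of the 2 gene sums, the tdTomato share ranged from 8.38% to 25.3% over 10 bins of equal size and was highest in the last 2 bins, both of neurons, while the background in eYFP cells ran from 0 to 3.63%. In tdTomato+ cells, Dbx1 had its highest values in the last 4 bins, though the interval of the fifth bin overlapped all of theirs but that of the ninth. In the seventh bin, where N approached A, it reached 67.4 counts per 1000000 UMIs (CPM) in tdTomato+ cells (41.7 to 103) against 23.1 (16.3 to 31.9) in untraced cells. In the next bin the untraced cells were at their own highest level, 44.7 (34.2 to 57.3), and the tdTomato+ cells at 33.1 (18.5 to 54.6), so that the groups overlapped there. In the ninth bin the tdTomato+ cells again held more, 72.6 (50.3 to 101) against 20.98 (14.05 to 30.1), and in the last bin 37.6 (23.0 to 58.1) against 12.6 (7.49 to 19.96).

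**Figure D2:**
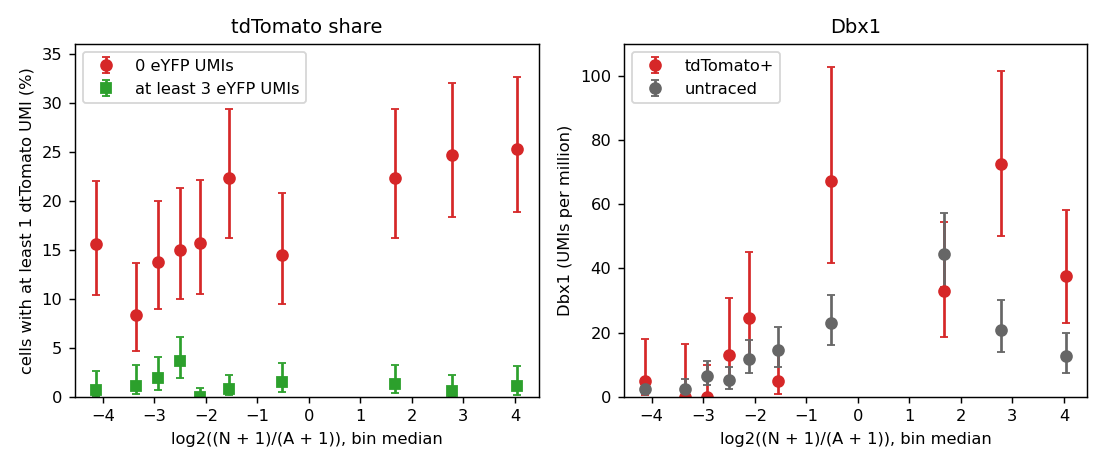
Left, percent of cells with at least 1 dtTomato UMI in 10 bins along log2((N + 1)/(A + 1)), progenitors at the left and neurons at the right, for cells without eYFP (red) and cells with at least 3 eYFP UMIs (green). Right, Dbx1 in CPM in tdTomato+ (red) and untraced cells (grey). Bars are exact 95% counting intervals. Dbx1 of tdTomato+ cells stands above that of untraced cells, without overlap of the intervals, in the seventh, the ninth and the last bin. With overlapping intervals it lies above in the first, the fourth and the fifth bin only.

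Dbx1 itself was higher in tdTomato+ cells of both classes. In progenitors it was at 14.5 CPM (38 UMIs) against 7.98 in untraced cells (108 UMIs), a ratio of 1.82 (1.23 to 2.66), with a UMI in 13.2% against 8.02% of cells. In neurons it was at 46.1 CPM (72 UMIs) against 26.6 (121 UMIs), a ratio of 1.73 (1.27 to 2.33), with a UMI in 21.9% against 12.47% of cells. When untraced cells were weighted to the same makeup over the 28 clusters, the ratio was 1.32 in progenitors and 0.995 in neurons. The higher level in tdTomato+ neurons was therefore not seen against untraced neurons of the same cluster makeup. With progenitors and neurons set apart by a factor of 2 between A and N, the ratio in progenitors was 1.10.

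Pcdh8, a delta-protocadherin, one of a family of cell adhesion molecules, was lower in tdTomato+ progenitors. It had 9 UMIs in 9 of the 167 cells (3.44 CPM) against 133 UMIs in 103 of the 960 untraced progenitors (9.82 CPM), a ratio of 0.351 (0.157 to 0.686), and 0.389 after weighting over clusters. Of the 9 UMIs, 6 were in progenitors with 1 dtTomato UMI (ratio 0.331, 0.119 to 0.739). Progenitors with 2 or 3 dtTomato UMIs held 3 (0.639, 0.130 to 1.91) and those with 4 or more held 0, so that no direction is given for them. In neurons Pcdh8 was at 21.1 CPM (33 UMIs) against 18.5 (84 UMIs), a ratio of 1.14 with an interval that covers 1 (0.739 to 1.73). It was 0.675 with each neuron thinned to 8000 UMIs, so that no direction is given. Of the other adhesion genes followed, Pcdh9 was lower in both classes (0.605, 0.375 to 0.934 in progenitors and 0.634, 0.416 to 0.941 in neurons), Pcdh19 was lower in progenitors (0.665, 0.511 to 0.854) and N-cadherin (Cdh2) differed little (0.895 and 0.947).

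A gene was counted as higher or lower where its CPM, from the summed UMIs of each group, differed at least 1.5-fold between tdTomato+ and untraced cells and it had at least 200 UMIs in both together. In progenitors, 43 of 6957 genes were higher (0.618%) and 60 were lower (0.862%). In neurons, 30 of 4334 were higher (0.692%) and 29 lower (0.669%). The median ratio was 0.999 and 0.996, near 1 in both classes. The genes and gene lists were chosen with earlier results of these data known. Listed genes were read with at least 50 UMIs, where 3.36% of 10282 genes were higher and 3.23% lower in progenitors, and 3.46% of 8418 higher and 3.14% lower in neurons.

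**Figure D3:**
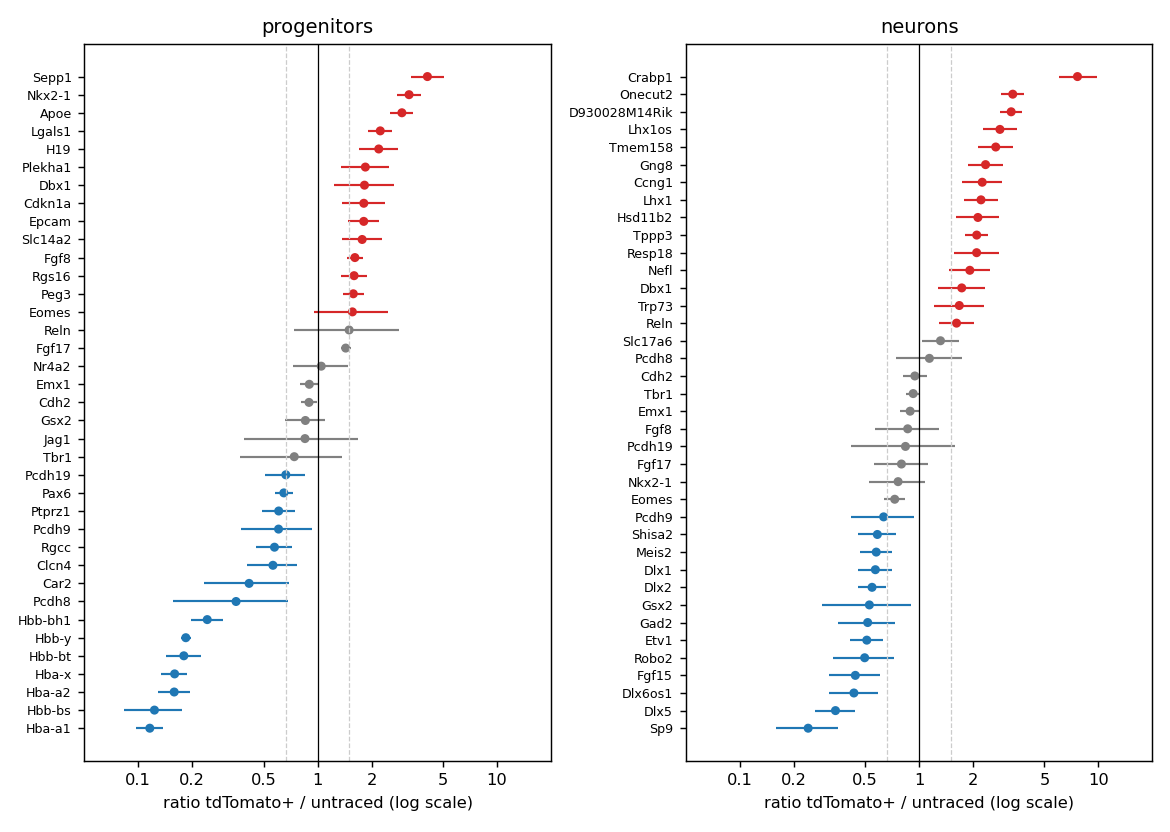
Ratio of CPM in tdTomato+ over untraced cells (log scale) for leading genes in each direction and genes followed throughout, those with at least 50 UMIs, in progenitors (left) and neurons (right); bars are 95% counting intervals, dashed lines mark 1.5-fold, red and blue mark genes past it. Crabp1 reaches 7.64 in neurons, and the haemoglobin genes at the bottom left go with 2 untraced erythroid cells.

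tdTomato+ progenitors held more transcripts of several ventral and rostral patterning genes and fewer of Pax6 and Tfap2c. Nkx2-1 was at 101 CPM against 31.4, a ratio of 3.23 (2.76 to 3.78), and was found in 22.8% against 8.85% of cells. Of the subpallial patterning genes, 4 of the 8 with at least 50 UMIs were higher and 0 lower, with a median ratio of 1.49. Beside Nkx2-1 these were Dlx1 (1.81, 1.21 to 2.65), Olig2 (1.51, 1.23 to 1.84) and Ptch1, the Hedgehog receptor that is also a target of the pathway (1.5, 1.05 to 2.11), while Gsx2 was at 0.854 (0.656 to 1.10). For Dlx1 the highest cell held 27.0% of the UMIs of the group. It had 1 UMI in the progenitors with 4 or more dtTomato UMIs (0.446, 0.0112 to 2.54), so that no direction is given there.

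Of the septal and FGF-responsive genes, 3 of 18 were higher and 0 lower, with a median of 1.26. Fgf8 was at 193 against 120 CPM (1.61, 1.46 to 1.78), Fgf18 had a ratio of 1.88 (1.31 to 2.67) and Spry2, an inhibitor that FGF signalling induces, 1.51 (1.19 to 1.90). Fgf17 stayed under the 1.5-fold line with 495 against 346 CPM (1.43, 1.35 to 1.52). Thinned to 8000 UMIs per cell, the ratio of Spry2 was 0.971. Weighted over clusters, Fgf8 (1.21) and Spry2 (1.27) were no longer past 1.5-fold and Fgf18 (1.51) was, while of the subpallial genes above Olig2 (1.32) and Ptch1 (1.40) were not and Nkx2-1 (2.23) and Dlx1 (1.72) were.

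Few pallial genes passed 1.5-fold. Pax6, a selector of pallial progenitors, was at 129 against 200 CPM (0.648, 0.577 to 0.725) and Tfap2c, a factor of pallial progenitors, at 24.1 against 39.1 (0.617, 0.468 to 0.803). These were the 2 of 8 ventral pallial and antihem genes that were lower, and none of that list was higher (median 0.882). Of 13 dorsal and medial pallial genes, Pax6 alone was lower and 0 were higher (median 0.898), with Emx1 at 0.898 (0.792 to 1.02). Of the other leading genes, Rgcc was at 0.574 (0.451 to 0.723), Ptprz1, a receptor phosphatase of radial glia, at 0.606 (0.489 to 0.745) and the chloride transporter gene Clcn4 at 0.563 (0.403 to 0.770).

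Of 12 genes of basal progenitors and neurogenesis, 2 were higher in tdTomato+ progenitors and 0 lower, with a median of 1.22. Dll3, a Notch pathway member of differentiating cells, was at 25.3 against 14.3 CPM (1.76, 1.31 to 2.34), and Eomes, the factor of basal progenitors, at 9.57 against 6.13 (1.56, 0.956 to 2.47), though 1 cell held 36% of the 25 Eomes UMIs and the ratio was 0.976 after weighting over clusters. Onecut2, listed with septal glutamatergic neurons, was at 19.1 against 7.38 CPM (2.59, 1.81 to 3.67). None of the 20 S phase genes and none of the 20 genes of G2 and mitosis passed 1.5-fold in progenitors, with medians of 0.921 and 0.943. Of 10 GABAergic genes, 4 were higher (Gad2, Dlx1, Isl1 and Nkx2-1) and 0 lower, with a median of 1.32. Isl1 was at 2.69 (1.81 to 3.95) and Gad2 at 2.20 (1.17 to 3.97), and at 2.295 and 1.86 when weighted over clusters. Gad2 was at 0.853 when cells were thinned, but at 4.73 (1.23 to 13.1, 4 UMIs) in the progenitors with 4 or more dtTomato UMIs. Isl1 was at 5.24 (2.81 to 9.17) in those with 2 or 3. With 4 or more, Isl1 had 1 UMI (0.584, 0.0146 to 3.35), so that no direction is given there. Other genes with high ratios were Epcam, an epithelial adhesion molecule (1.81, 1.49 to 2.19), the urea transporter gene Slc14a2 (1.77, 1.36 to 2.28), Plekha1 (1.84, 1.34 to 2.50), Rgs16, a regulator of G protein signalling (1.60, 1.34 to 1.89), and the imprinted gene Peg3 (1.58, 1.38 to 1.80).

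Of the 7 delta-protocadherins with at least 50 UMIs, 4 were lower in tdTomato+ progenitors and 0 higher, with a median of 0.665. Pcdh10 (0.615, 0.326 to 1.07) joined Pcdh8, Pcdh9 and Pcdh19, and the interval of Pcdh10 covers 1. Weighted over clusters, Pcdh8 alone stayed past 1.5-fold, with Pcdh9 at 0.733, Pcdh10 at 0.767 and Pcdh19 at 0.679. Among 5 classical cadherins, Cdh11 was higher (2.06, 1.35 to 3.08) and Cdh4 lower (0.564, 0.361 to 0.847).

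Some leading genes of progenitors were held by single cells of other types. The group of 167 held 2 cells with at least 5 UMIs of mesenchyme, vessel and macrophage genes, and they held 391 of the 443 UMIs of that list. The macrophage genes C1qb, C1qc and Fcer1g had 51, 57 and 53 UMIs in tdTomato+ progenitors, of which the highest cell held 49, 56 and 53. The same applies to Sepp1 (ratio 4.09), Apoe (2.95) and Atf3 (4.41), where 1 cell held 71.4%, 71.7% and 80.7% of the UMIs. Left without the cells of other types, the ratio was 1.12 for Sepp1, 0.867 for Apoe, 0.866 for Atf3 and 0.749 for Cdkn1a, while it was 3.26 for Nkx2-1, 1.63 for Fgf8, 0.649 for Pax6 and 0.354 for Pcdh8. In neurons, 0 cells of either group met this criterion.

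Haemoglobin genes went the other way. All 8 erythroid genes with at least 50 UMIs were lower in tdTomato+ progenitors, with a median ratio of 0.169, for example Hba-a1 at 51.7 against 446 CPM. Of the untraced progenitors, 2 had at least 1% of their UMIs from erythroid genes (up to 84.7%), and 1 cell held 49.7% of the Hba-a1 UMIs. Without cells of other types the ratio of Hba-a1 was 1.23. Since Hba-a1 and Hba-a2, and Hbb-bs and Hbb-bt, are near-identical copies, the split of reads between them is uncertain.

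After these cells were left out, the 12 leading genes in each direction were Nkx2-1, Epcam, Fgf8, Slc14a2, Dlk1 (1.51, 1.38 to 1.66), Peg3, Rgs16, Plekha1, Dll3, S100a16, Pex3 and Cox6b2 among the higher ones, and Pax6, Rgcc, Ptprz1, Clcn4, Klhl23, Fam181b, Tfap2c, Otx1 (0.658, 0.530 to 0.809), Zfp655, Sall3, Lonp2 and Adgrl2 among the lower ones. Dlk1 encodes a Notch-related surface protein and Otx1 a homeodomain factor of the forebrain. This order was computed after the values had been seen.

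Crabp1, Onecut2 and D930028M14Rik led the genes that were higher in tdTomato+ neurons, and each was found in a minority of these neurons. Crabp1 was at 163 CPM (255 UMIs) against 21.4 (97 UMIs), a ratio of 7.64 (6.02 to 9.75), and was found in 23 of 128 tdTomato+ neurons (18.0%) and 31 of 409 untraced neurons (7.58%). Onecut2 was at 252 against 75.7 CPM (3.33, 2.87 to 3.86) and the long noncoding RNA gene D930028M14Rik at 270 against 82.8 (3.26, 2.83 to 3.76). They were found in 46.1% against 25.2% and in 33.6% against 13.7% of neurons. No single cell held more than 18.0% of the UMIs of these 3 genes in tdTomato+ neurons.

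Lhx1, a LIM homeodomain factor of Cajal-Retzius and septal neurons, was at 92.1 against 41.6 CPM (2.21, 1.77 to 2.76). Its divergent neighbour Lhx1os, a noncoding transcript, was at 109 against 38.5 (2.82, 2.27 to 3.51). On mm10, Lhx1 lies on the minus strand of chromosome 11 from 84518284 to 84525535 and Lhx1os on the plus strand from 84525660 to 84535831, so that the 2 genes do not overlap and their starts are 125 bases apart. Both were found in 27.3% of tdTomato+ neurons.

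Other leading genes were Tmem158 (2.68, 2.13 to 3.36), the G protein subunit gene Gng8 (2.35, 1.87 to 2.94), Ccng1, a target of p53 (2.25, 1.74 to 2.89), Hsd11b2, which inactivates glucocorticoids (2.13, 1.61 to 2.80), the tubulin-binding gene Tppp3 (2.096, 1.80 to 2.43), Resp18 (2.09, 1.56 to 2.79) and the neurofilament gene Nefl (1.92, 1.477 to 2.48). Tppp3 was the most widespread of them, in 55.5% of tdTomato+ and 28.9% of untraced neurons.

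Genes of Cajal-Retzius cells were higher in tdTomato+ neurons, 6 of the 12 with at least 50 UMIs being higher and 0 lower, with a median of 1.53. Reln, which encodes Reelin, was at 78.7 against 48.7 CPM (1.62, 1.29 to 2.03) and in 43.0% against 24.2% of cells. Trp73, which marks the Cajal-Retzius cells of the septum and hem, was at 40.9 against 24.4 CPM (1.68, 1.21 to 2.30). Cdkn1a, a cell cycle inhibitor, was at 289 against 175 CPM (1.64, 1.46 to 1.85) and Ndnf, a secreted protein gene, at 15.4 against 7.05 (2.18, 1.23 to 3.82). Calb2, which encodes calretinin and is used by many early neurons, was at 0.799.

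Of 16 septal glutamatergic genes, 3 were higher (Lhx1, Onecut2 and Dbx1) and 2 lower (Ebf1 and Meis2), with a median of 1.11. Slc17a6, the vesicular glutamate transporter of these neurons, was at 67.8 against 51.5 CPM (1.32, 1.04 to 1.66). Of 13 pallial glutamatergic genes, Slc17a7, the other vesicular glutamate transporter, was the only one past 1.5-fold, with 5 against 47 UMIs (0.309, 0.0960 to 0.774), and Tbr1 was at 395 against 426 CPM (0.927, 0.845 to 1.02). Eomes was at 163 against 223 CPM (0.731, 0.635 to 0.840).

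GABAergic and subpallial patterning genes were lower in tdTomato+ neurons, and the lists share members. Of 10 subpallial patterning genes with at least 50 UMIs, 6 were lower and 1, Gsx1, was higher, with a median of 0.559. The interval of Gsx1 covers 1 (1.69, 0.989 to 2.83), and 1 cell held 48.0% of its tdTomato+ UMIs. Of 16 GABAergic genes with at least 50 UMIs, 11 were lower and 1 higher, with a median of 0.559. Among the lower ones were Gad1, Gad2, the vesicular GABA transporter gene Slc32a1, Dlx genes and Sp9. Sp9 was at 18.6 against 77.1 CPM (0.241, 0.159 to 0.352), Dlx5 at 43.5 against 127 (0.342, 0.262 to 0.440) and Gad2 at 23.7 against 45.8 (0.517, 0.354 to 0.736). Sp9 was found in 6 tdTomato+ neurons (4.69%) and 69 untraced neurons (16.9%). Lhx8, a factor of ventral GABAergic and cholinergic neurons, was higher with 37 against 49 UMIs (2.19, 1.39 to 3.43), of which 1 cell held 32.4% of the tdTomato+ UMIs.

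Of 17 septal and FGF-responsive genes in neurons, 0 were higher and 4 lower, with a median of 0.986. Fgf15 was at 0.441 (0.316 to 0.603) and Etv1 at 0.511 (0.411 to 0.630). Among genes of axon guidance and migration, 2 of 17 were lower, the Slit receptor gene Robo2 (0.497, 0.331 to 0.726) and the semaphorin receptor gene Nrp2 (0.638, 0.451 to 0.884). Of the delta-protocadherins, Pcdh10 (1.94, 1.16 to 3.20) and Pcdh17 (1.91, 1.08 to 3.32) were higher and Pcdh9 lower. Pcdh10 thus stood on opposite sides in the 2 classes, a difference that was not tested.

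For several genes the difference was larger in cells with more dtTomato UMIs. The cells are grouped here by the reporter count that chose them, and many of the genes were named for their ratio over these same cells. Of the 265 Nkx2-1 UMIs in tdTomato+ progenitors, for example, 93 were in the 19 cells with 4 or more dtTomato UMIs. The levels by reporter count are thus a description and not a separate result. The median depth was 12919, 13322, 11957.5 and 13642 UMIs in progenitors with 0, 1, 2 or 3, and 4 or more dtTomato UMIs, and 10293, 11473, 10474 and 10918 in neurons. In the 19 progenitors with 4 or more, Nkx2-1 was at 325 CPM, 10.4 times the untraced level (8.18 to 13), after 61.1 CPM in cells with 1 and 123 in cells with 2 or 3. Dbx1 was at 10.3 (19 UMIs), 10.5 (5 UMIs) and 48.9 CPM (14 UMIs, 26.7 to 82.1) in cells with 1, 2 or 3, and 4 or more, against 7.98 in untraced progenitors. The highest tdTomato+ progenitor held 6 Dbx1 UMIs. Progenitors with 1 dtTomato UMI were thus close to the untraced ones in Dbx1, with overlapping intervals. In neurons with 1 dtTomato UMI, Dbx1 was at 0.988 of the untraced level (0.603 to 1.55).

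Pax6 and Emx1 were lowest in the progenitors with most reporter. Pax6 was at 200, 148, 121 and 24.5 CPM in progenitors with 0, 1, 2 or 3, and 4 or more dtTomato UMIs, the last being 0.122 of the untraced level (0.0492 to 0.253). Emx1 was at 128, 131, 98.3 and 34.9 CPM. Tfap2c and Rgcc had 1 UMI each in the 19 progenitors with most reporter, 0.0894 (0.00226 to 0.5) and 0.0647 (0.00164 to 0.362) of the untraced level. Ptch1 was at 45.4 against 11.2 CPM there (4.05, 2.11 to 7.13), Olig2 at 80.3 against 32.6 (2.46, 1.54 to 3.74) and Eomes, with 10 UMIs, at 34.9 against 6.13 (5.70, 2.64 to 11). For Eomes the highest tdTomato+ progenitor held 9 UMIs, and the ratio over all tdTomato+ progenitors was 0.976 after weighting over clusters. Pcdh8 had 0 UMIs in these 19 cells, and the floor of 3 counts, 10.5 CPM, is not below the untraced level, so that no ratio is given.

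Fgf8 and Fgf17 did not follow that order. Fgf8 was at 107 CPM in progenitors with 1 dtTomato UMI, 468 with 2 or 3 and 290 with 4 or more, against 120 in untraced progenitors, and Fgf17 at 386, 874 and 569 against 346. Both were thus highest in the 32 progenitors with 2 or 3 UMIs.

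**Figure D4:**
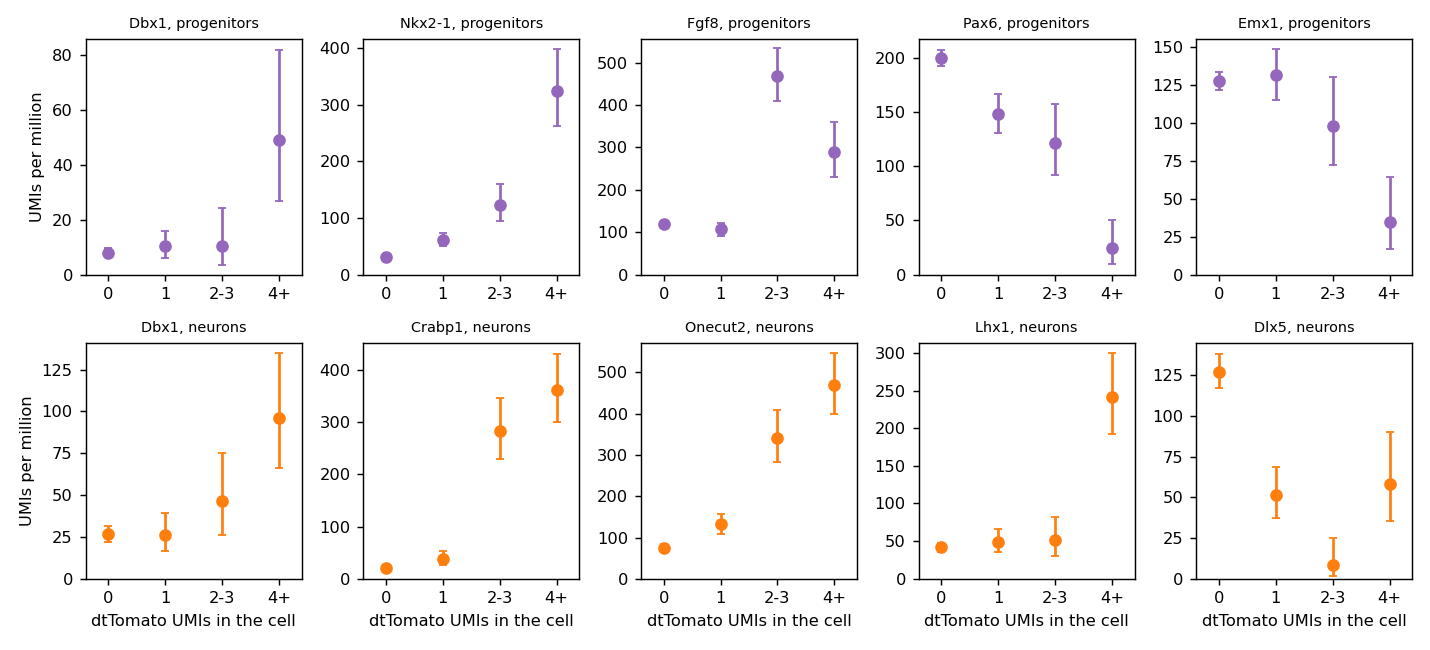
Level (CPM, y axis) of 5 genes in progenitors (top, purple) and 5 genes in neurons (bottom, orange) by the number of dtTomato UMIs in the cell (x axis), for 960, 116, 32 and 19 progenitors and 409, 70, 28 and 30 neurons; bars are exact 95% counting intervals. Nkx2-1 goes from 31.4 to 325 while Pax6 runs from 200 down to 24.5 in progenitors, and Lhx1 lies between 41.6 and 52.0 in neurons with up to 3 dtTomato UMIs and at 242 with 4 or more.

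In neurons the genes differed in the number of dtTomato UMIs at which they were high. Crabp1 was at 21.4, 37.8, 283 and 361 CPM in neurons with 0, 1, 2 or 3, and 4 or more dtTomato UMIs, and Onecut2 at 75.7, 132, 341 and 469, both past 1.5-fold at 1 UMI already (1.77, 1.15 to 2.65 and 1.74, 1.39 to 2.15). Ndnf was at 5.34 times the untraced level with 2 or 3 (2.57 to 10.5) and 1.65 with 4 or more (0.425 to 4.66). Lhx1 was at 41.6, 49.2, 52.0 and 242 CPM, Cdkn1a at 175, 182, 179 and 670, and Trp73 at 24.4, 32.0, 23.1 and 81.6. The 30 neurons with most reporter thus held 5.81 (4.43 to 7.56), 3.82 (3.28 to 4.43) and 3.34 (2.12 to 5.09) times the untraced level of the last 3 genes. Slc17a6 was at 119 CPM there, 2.32 times the untraced level (1.62 to 3.24), and Tppp3 at 481 (5.11, 4.25 to 6.13).

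Eomes was at 223, 213, 162 and 37.9 CPM over the 4 groups and Emx1 at 218, 279, 110 and 64.1, whereas Tbr1 stayed between 312 and 498. Dlx2 was at 174, 132, 2.89 and 96.1 CPM and Dlx5 at 127, 51.5, 8.67 and 58.3, so that the lowest Dlx levels were in the 28 neurons with 2 or 3 dtTomato UMIs. The 30 neurons with 4 or more include the 3 cells above with at least 5 UMIs of Dlx2, Dlx5 and Sp9.

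Summed over whole lists, the progenitors with 4 or more dtTomato UMIs had 2.40 times the untraced level of subpallial patterning genes (2.07 to 2.76) and 1.62 times that of septal and FGF-responsive genes (1.51 to 1.74). They had 0.389 of the ventral pallial and antihem genes (0.317 to 0.472) and 0.423 of the dorsal and medial pallial genes (0.363 to 0.492). Both of these pallial lists hold Pax6, Emx2, Lhx2 and Neurog2, so the sums are not independent. The Cajal-Retzius and septal glutamatergic lists likewise share Lhx1, Lhx5, Nhlh2 and Ebf3. The neurons with 4 or more dtTomato UMIs had 2.29 times the untraced level of Cajal-Retzius genes (2.11 to 2.48) and 1.77 times that of septal glutamatergic genes (1.67 to 1.88). They had 0.614 of pallial glutamatergic genes (0.563 to 0.668) and 0.270 of genes of G2 and mitosis (0.225 to 0.322). Cells with 1 dtTomato UMI lay within 0.655 and 1.31 of the untraced level for all lists but those of the reporters, erythroid cells, and mesenchyme, vessel and macrophages.

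**Figure D5:**
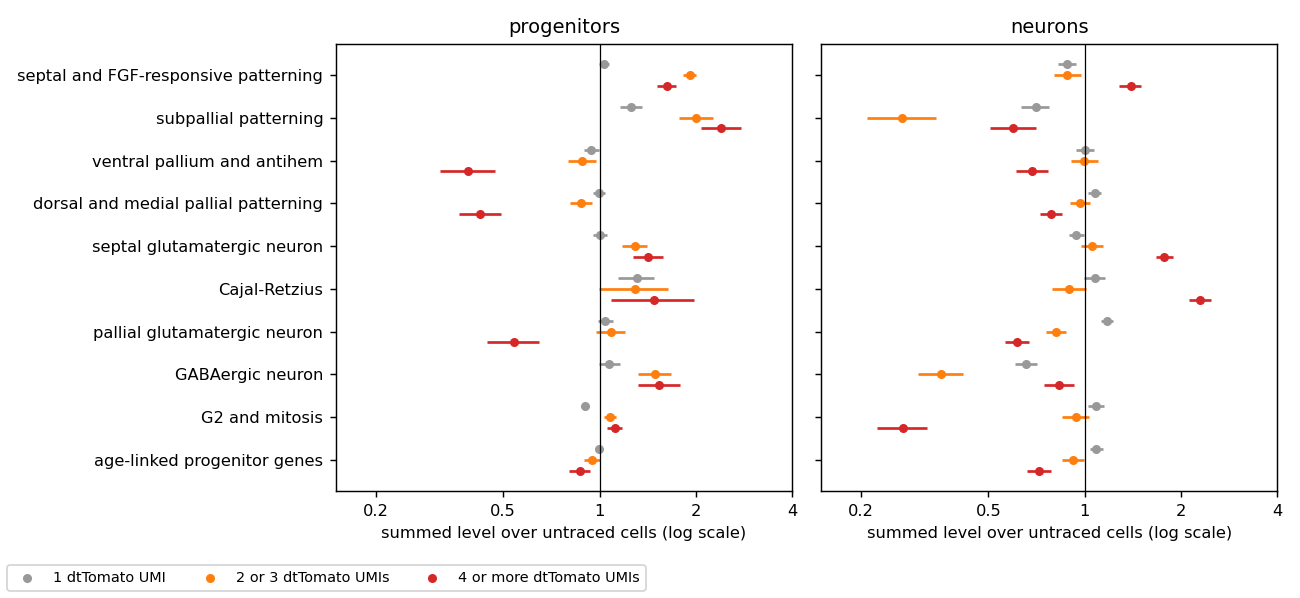
Summed CPM of 10 gene lists in tdTomato+ cells over untraced cells (x axis, log scale), for progenitors (left) and neurons (right) with 1 (grey), 2 or 3 (orange) and 4 or more dtTomato UMIs (red); bars are 95% counting intervals. Grey points lie closest to 1 in most lists in progenitors, but in neurons an orange or red point lies closer in several lists. The red points reach 2.40 for subpallial patterning in progenitors and 2.29 for Cajal-Retzius genes in neurons.

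Many differences were smaller among cells of the same clusters. When the untraced cells were weighted to the cluster makeup of the tdTomato+ cells, 23 genes were higher and 39 lower in progenitors, and 12 higher and 21 lower in neurons. Without weighting these counts were 43 and 60 of 6957 genes in progenitors, and 30 and 29 of 4334 in neurons. The weighted ratio was 2.23 for Nkx2-1, 1.21 for Fgf8, 0.748 for Pax6 and 1.37 for Epcam in progenitors. In neurons it was 4.44 for Crabp1, 1.98 for Onecut2, 1.77 for D930028M14Rik and 2.05 for Tmem158, but 1.22 for Lhx1, 1.21 for Tppp3, 1.11 for Reln, 1 for Trp73 and 0.986 for Cdkn1a. For GABAergic genes it was 0.398 for Sp9, 0.569 for Dlx5, 0.777 for Gad2 and 0.882 for Dlx2. Of the named genes past 1.5-fold, 30 of 59 in progenitors and 30 of 50 in neurons stayed past it in the same direction. Crabp1, Onecut2 and Nkx2-1 were among them. Of the Cajal-Retzius genes in neurons, Ndnf stayed past it (1.52), whereas Lhx1, Reln, Trp73 and Cdkn1a did not.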

How the data were processed

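The authors made a single cell library of septal explants with a 10x Genomics Single Cell 3′ v2 kit and processed the reads with Cell Ranger 2.1.1 at default parameters on mm10, to which the reporter sequences had been added. The deposited values are raw UMI counts per gene and barcode (28001 features, 5827 barcodes, median 12722 UMIs). Barcodes with under 4% mitochondrial UMIs were kept. Levels were computed as counts per 1000000 UMIs over the summed cells of a group. Shares have Clopper-Pearson intervals, levels Poisson intervals and ratios conditional binomial intervals, all exact. Genes were named by a rule: in each class the 12 with the highest lower bound and the 12 with the lowest upper bound of the ratio interval, up to 4 per list and direction from 22 lists, and a fixed set around Dbx1, Pcdh8 and the markers of cell classes. A gene that the rule named is not reported here. Members and lists were chosen with earlier results of these data known. Cells were clustered with 2000 variable genes, 30 components, 15 neighbours and a Leiden resolution of 1.5 (scanpy 1.11.5, igraph 0.11.9), and for 1 alternative thinned to 8000 UMIs, where 30 tdTomato+ and 199 untraced cells were shallower and left out. The script was tested on simulated data. Tables were handled with pandas 2.3.3 and numpy 2.4.6 in Python 3.11.15, intervals came from scipy 1.17.1, and figures from matplotlib 3.10.9. The library of the telencephalic vesicle was not used here beyond its barcodes.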

Additional observations from a re-analysis of the deposited data

Results flagged for a closer look

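A signal appeared in cells that do not enter the main gene comparison. Of the 3976 cells with at least 1 eYFP UMI, 2.94% held a dtTomato UMI (117 cells). Of these 117 cells, 66 had 1 and 10 had 2 eYFP UMIs, and from which embryos they came is not known. The share was 1.27% in cells with at least 3 eYFP UMIs and 13.5% in those with exactly 1. The Cre sequence listed as IRESCRE, which no source used here ties to Dbx1Cre alone rather than PGKCre, was found in 4 of the 3226 cells with at least 3 eYFP UMIs (0.124%, 0.0338 to 0.317). The cause of these signals was not tested.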

How the results depend on the processing

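Of the 129 named gene values (ratios in progenitors or neurons), 121 kept their direction and size with the mitochondrial limit at 3 median absolute deviations, 125 with none and 129 with Scrublet doublets left out. Scrublet marked 0 tdTomato+ and 1 untraced cell, so the last count says nothing about doublets. The count was 102 of 129 with cells thinned to 8000 UMIs, 94 of 129 with untraced cells of any eYFP level and 87 of 129 weighted over clusters. It was 57 of 124 with at least 2 dtTomato UMIs and 39 of 115 with at least 4. It was 123 of 129 with A and N 2 times apart, 117 of 129 with 1 eYFP UMI also taken and 110 of 128 without non-neural cells. Reversed with that mitochondrial limit were Hba-a1 (1.23), Hba-a2 (1.13), Hbb-bt (1.09), Hbb-bh1 (1.04) and Car2 (1.16). Thinned to 8000 UMIs, the tdTomato share was 10.1% in progenitors, 19.5% in neurons and 1.96% in cells with at least 1 eYFP UMI, 22 genes were higher in progenitors, Pcdh8 in neurons was at 0.675, and Spry2 (0.971) and Gad2 (0.853) in progenitors reversed. With at least 2 dtTomato UMIs the shares of progenitors, neurons and cells with at least 1 eYFP UMI were 4.53%, 10.8% and 0.780%, 281 genes were higher and 383 lower in progenitors, 86 and 145 in neurons, Dbx1 was at 3.12 and 2.67, and Cdkn1a (0.906) and Atf3 (0.793) in progenitors and Id3 (1.17) and Gsx1 (0.307) in neurons reversed. With A and N 2 times apart, Dbx1 in progenitors was at 1.10. With untraced cells of any eYFP level, 259 and 336 genes passed in progenitors and 201 and 223 in neurons, and Msx1 reversed (0.733). The untraced group then also holds the eYFP cells of the younger embryos, so that reporter and age cannot be told apart in this setting. Weighted over clusters, 23 and 39 genes passed in progenitors and 12 were higher in neurons. Dbx1 (0.995) and Cdkn1a (0.986) in neurons and Hbb-bh1 (1.002) and Eomes (0.976) in progenitors were then near 1, so that no direction is read from them. Hba-a1 (1.245), Hba-a2 (1.07), Hbb-bt (1.08) and Ttr (1.33) in progenitors lay on the other side of 1. With at least 50 UMIs, 345 and 332 genes passed in progenitors and 291 and 264 in neurons. With at least 1000 UMIs these counts were 2, 8, 2 and 0, and at a fold of 2 they were 5, 8, 11 and 6. The other alternatives were chosen after seeing the data. Among cells with at least 3 eYFP UMIs the tdTomato share was 1.27%. Without non-neural cells, Apoe (0.867), Cdkn1a (0.749), Atf3 (0.866), Hba-a1 (1.23), Hba-a2 (1.15), Hbb-bt (1.06), Hbb-bh1 (1.02) and Car2 (1.22) in progenitors reversed. With at least 4 dtTomato UMIs the same shares were 1.69%, 5.59% and 0.352%, 538 and 818 genes passed in progenitors and 192 and 316 in neurons, Dbx1 was at 6.13 and 3.61, and Dlx1 (0.446), Isl1 (0.584), Atf3 (0.706) and Fosb (0.975) in progenitors and Id3 (1.27) and Cdh11 (0.854) in neurons reversed. Of the 4 progenitor genes, Dlx1, Isl1 and Atf3 had 1 UMI each and Fosb 2 in these cells. Those counts are under the floor of 3 and all 4 intervals cover 1, so that no direction is read from them. With cells of 1 eYFP UMI also taken, Hba-x (1.19), Hbb-bt (1.01) and Hbb-bh1 (1.14) reversed. The share of all genes tested is not given for these counts of genes, which are not set against each other. The tdTomato+ groups held 51 progenitors and 58 neurons with at least 2 dtTomato UMIs, and 19 and 30 with at least 4. Counting error is wider in such small groups, so more genes past the fold there are not read as a stronger difference. The cause of these changes was not tested. With 1 library the depth limits only counting error, and spread between embryos is not measured.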
